A study of Mus musculus with 8 samples.

Results

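Malat1, Neat1, Meg3, H19, Kcnq1ot1 and Rian are 6 of the 55450 genes in the mouse annotation (GENCODE M21, genome GRCm38), and all 6 are long noncoding RNAs. The m6A peak lists of primary vascular smooth muscle cells (VSMCs) of the mouse aorta, which make up the contractile layer of arteries, were searched for peak summits inside their annotated exons. A summit is the base of a peak with the highest signal. The 4 lists held 42744 summits, of which 57 lay in an exon of these genes.

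The cells were isolated from the descending aorta of young adult C57BL/6J mice and were infected with lentivirus that expressed a short hairpin RNA (shRNA). The shCTR hairpin targets a plant microRNA sequence, and the shMettl14 hairpin targets Mettl14, a subunit of the enzyme that writes N6-methyladenosine (m6A). Both groups carried the virus and neither was an untransduced control. The series has 8 samples. For replicates A and B of each group, fragmented total RNA was sequenced as such (input) and after enrichment with an antibody against m6A (IP), and each IP sample gave 1 peak list, with n = 2 lists per group. The labels do not say whether A and B were separate cultures, so the spread between them may be technical.

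m6A is placed by a complex of METTL3 and METTL14 on adenosines within a short motif called DRACH, which reads A, G or T, then A or G, then AC, then A, C or T. Long noncoding RNAs carry the mark as mRNAs do. Malat1 is a nuclear RNA associated with nuclear speckles, and Neat1 is the scaffold of nuclear bodies called paraspeckles and has a short and a long isoform. Meg3 and Rian are maternally expressed from the imprinted Dlk1-Dio3 cluster, H19 is the maternally expressed neighbour of Igf2, and Kcnq1ot1 is a paternally expressed antisense RNA that silences genes around Kcnq1.

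The stretches below show the DRACH motif, in capitals, nearest to the summit with the highest fold enrichment percentile of each gene (its strongest summit), together with motifs of Malat1, Neat1 and Meg3 that lay within 50 nt of a summit in all 4 lists. They are shown because they lie near the summits that the results turn on, and motifs of the second kind are not always the closest ones. Each reads 5′ to 3′ along the transcript, the position is that of the central A counted from the 5′ end of the transcript, and the letters come from the GENCODE M21 transcripts. A match is a description of the sequence and does not show that the adenosine is methylated.
Malat1 nt 207, 5′-most summits (chr19:5802454-5802478, minus strand): tcttaagagaTAACAtgaaggctta
Malat1 nt 814, second shared place (chr19:5801847-5801871, minus strand): ggaaaatagaAGACAaagcatcttt
Malat1 nt 1328, strongest summit (chr19:5801333-5801357, minus strand): tgcattcagtGAACTaggaagacag
Malat1 nt 1350, summits with the highest pileup (chr19:5801311-5801335, minus strand): caggagcggcAGACAggagtcccga
Neat1 nt 1453, strongest summit (chr19:5844014-5844038, minus strand): tctgtgctgcGAACTtggcctcgag
Neat1 nt 1486, near a summit in every list (chr19:5843981-5844005, minus strand): gtaaggtgtaGGACActttaacgtc
Meg3 nt 14302, near a summit in every list (chr12:109571468-109571492, plus strand): ttgagtagagAGACCcacctactga
Meg3 nt 14379, strongest summit (chr12:109571545-109571569, plus strand): atggaccctgAGACTtgggggggtg
Kcnq1ot1 nt 37425, strongest summit (chr7:143259113-143259137, minus strand): aaaatctctaGGACTttagatttga
Rian nt 1515, strongest summit (chr12:109660864-109660888, plus strand): agcaccctcaGGACCtgcacaggtc

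Of the 6 genes, 5 (Malat1, Neat1, Meg3, Kcnq1ot1 and Rian) had an exonic summit in all 4 lists, as did 3690 or 6.65% of all annotated genes, expressed or not. H19 had none in any list, and no peak interval overlapped H19 (chr7:142575529-142578143, minus strand) or lay within 5000 bp of it. The longest annotated H19 transcript (2286 nt) holds 45 DRACH motifs, or 19.7 per kb, within the 15.7 to 25.5 per kb of the other members. Such a count does not tell whether a site is methylated. Where no peak was called the lists hold no value, and a low RNA level and a lack of methylation cannot be told apart.

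Malat1 gave 25 of the 57 summits, Neat1 and Kcnq1ot1 11 each, Meg3 6 and Rian 4. The summits did not cover the RNAs evenly. Malat1 summits lay between 162 and 3676 nt of its 6983 nt, that is in the 5′ 52.6% of the transcript. Neat1 summits lay between 1460 and 2047 nt of 20771 nt, the 5′ 9.86%. Meg3 summits lay at the other end, 147 to 263 nt from the 3′ end of a 14548 nt transcript. Rian summits lay between 1480 and 1606 nt of a 2355 nt transcript, in its last exon, number 11. Kcnq1ot1 summits lay at 37408 to 38028 nt and at 72570 to 72574 nt of 93092 nt.

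**Figure D1:**
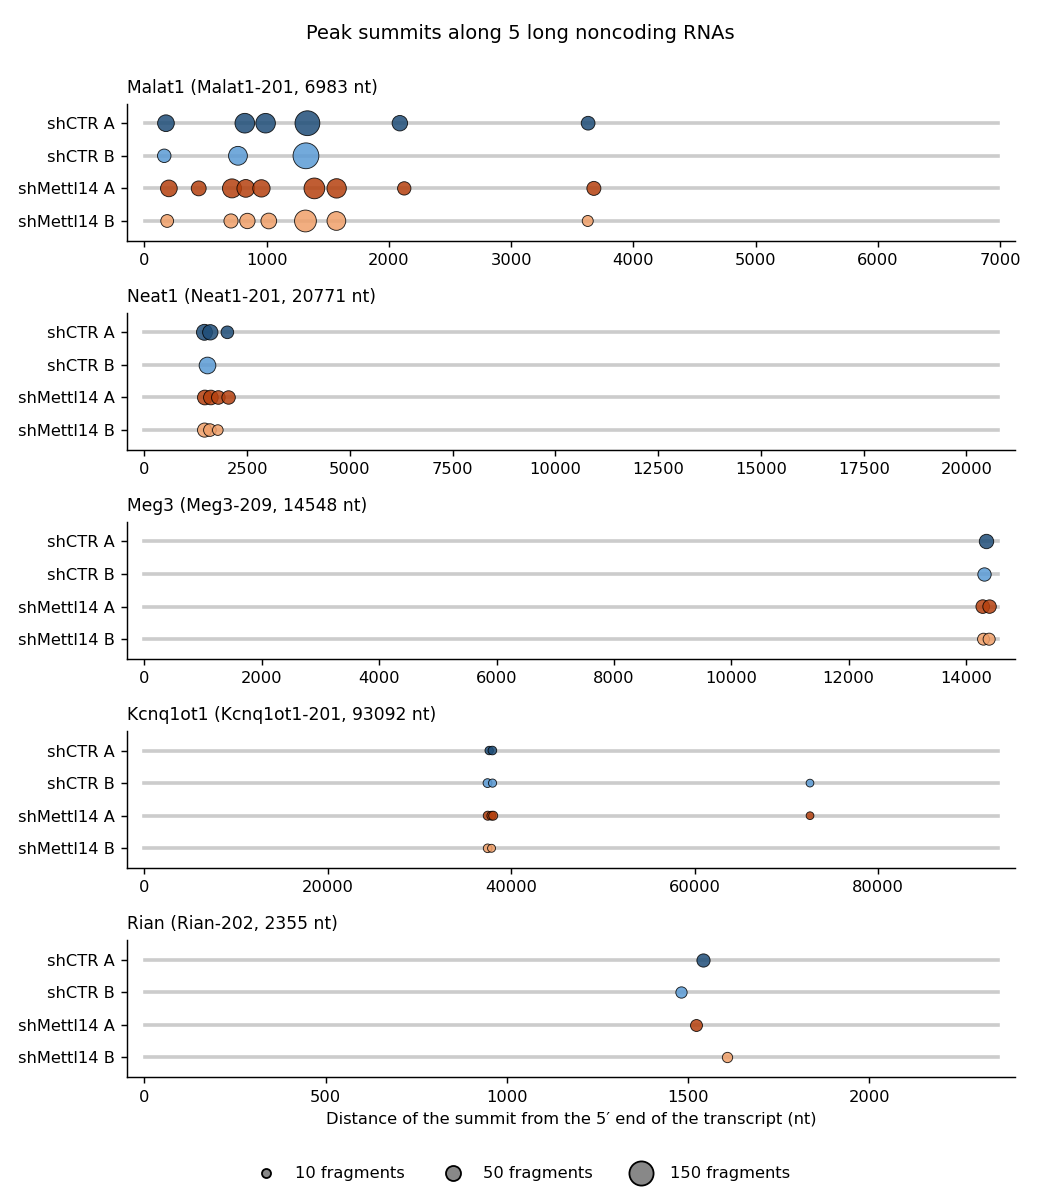
Summit positions along the transcript that holds them, in nt from the 5′ end (x axis), with 1 row per peak list. Each point is 1 summit, and its area grows with the IP pileup in fragments. Each of the 5 RNAs drawn had at least 1 place with a summit in all 4 lists, for example 1317 to 1390 nt of Malat1. Places at 1570 to 1572 nt of Malat1 and 1785 to 1798 nt of Neat1 had one in the shMettl14 lists only. Peak intervals of all 4 lists covered both of these places, and the share of such places over all genes was not counted.

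The term abundant was checked through the background. For each summit the caller, MACS2, reports a fold enrichment, which is the IP pileup (fragments over the summit) plus 1 divided by the background plus 1. The background is the local level that MACS2 derived from the input sample, at the depth of the IP sample. The pileup and the background were recovered from the deposited fold enrichment and p-value of every summit, and each was ranked within its list as a percentile, where 100 is the highest. Total reads per sample were not used here, so percentiles carry the comparison between lists. Median pileups over all summits were 16, 16, 14 and 13 fragments in shCTR A, shCTR B, shMettl14 A and shMettl14 B.

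By this measure Malat1 and Neat1 stood near the top of each list, Meg3 and Rian lower, and Kcnq1ot1 near the bottom. The highest background of a Malat1 summit had rank 2 in every list, at 25.4 and 18.8 fragments in shCTR A and B and 17.6 and 12.9 in shMettl14 A and B. Neat1 reached percentiles of 98.8, 99.1, 99.0 and 98.8 in the same order. Meg3 reached 89.3, 90.1, 91.3 and 92.4. Those 3 genes held their order in every list, while Rian, at 73.4, 96.4, 73.2 and 84.5, was above Meg3 in shCTR B and below it in the other lists. Kcnq1ot1 reached only 11.8, 9.86, 20.4 and 17.5, so the label abundant was not borne out for Kcnq1ot1 by this measure, and H19 had no value. The measure ranks called summits only, not all expressed RNAs, and takes the highest summit of each gene. In cells measured in bulk, fewer cells that express a gene and less RNA per cell cannot be told apart.

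**Figure D2:**
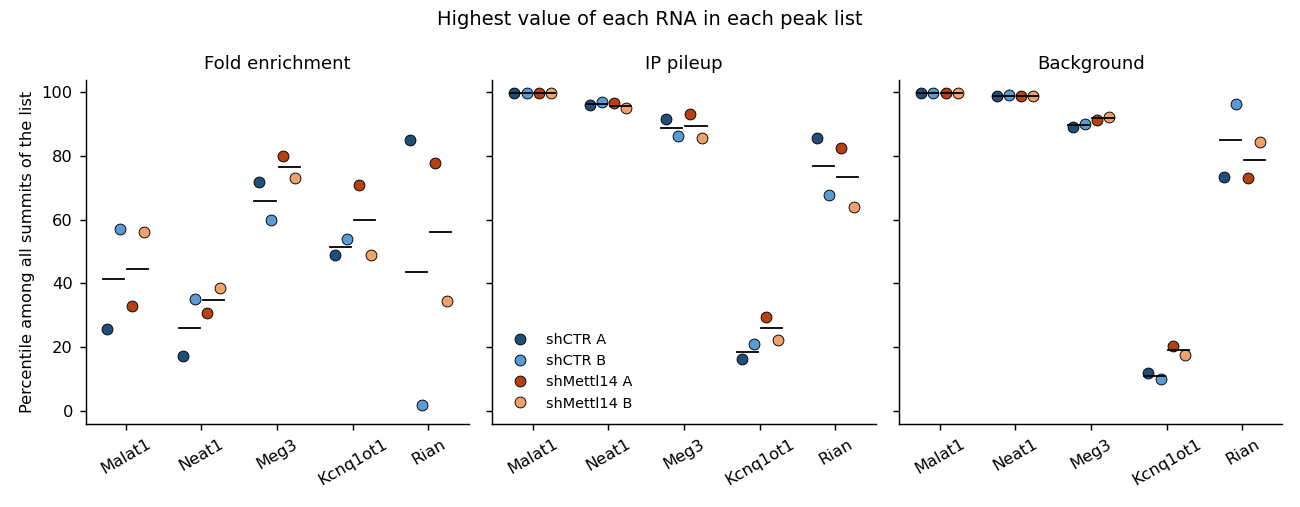
Highest percentile of fold enrichment (left), IP pileup (middle) and background (right) of each RNA among all summits of a list. Each point is 1 list, and black lines are the means of the 2 lists of a group. Malat1 and Neat1 were above 95 for pileup and background in every list and below 60 for fold enrichment, while Kcnq1ot1 was below 30 for pileup and background.

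Malat1 (chr19:5795690-5802672, minus strand, a single-exon transcript) ranked first for both pileup and background among the long noncoding RNA genes with an exonic summit, which numbered 149 and 125 in the shCTR lists and 182 and 128 in the shMettl14 lists. Its highest summit held 159 and 173 fragments in shCTR A and B and 107 and 120 in shMettl14 A and B, and these pileups had rank 3, 2, 3 and 2 of all summits in their lists. It was at 1333, 1321, 1390 and 1317 nt in these lists, a span of 73 nt. Fold enrichment put the gene much lower. The strongest Malat1 summit by fold enrichment ranked 8299 of 11158 and 3701 of 8655 in shCTR A and B, and 9182 of 13675 and 4053 of 9256 in shMettl14 A and B, which are percentiles of 25.6, 57.2, 32.9 and 56.2. Both B lists were high and both A lists low, whichever hairpin the cells carried.

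Within Malat1 the summits formed 7 places, taking summits at most 150 nt apart as 1 place. No other distance was tried, and the share of places with summits in 1 group only was not counted over all genes. The places at 162 to 200, 708 to 1017 and 1317 to 1390 nt held a summit in all 4 lists. The place at 1317 to 1390 nt had the highest pileup of the gene in each list, and the 5′-most place reached only 65, 38, 65 and 33 fragments. A pair of summits at 1570 and 1572 nt, with 92 and 85 fragments, occurred in the 2 shMettl14 lists and not in the shCTR lists, but the peak interval around them was shared by all lists. The place at 3626 to 3676 nt was found in shCTR A, shMettl14 A and shMettl14 B, and its fold enrichment of 2.74 in shMettl14 B was the lowest of all 9256 summits of that list. A total of 5 Malat1 summits also lay in an exon of Gm27694 or Gm37376, so their fragments cannot be assigned to Malat1 alone.

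Neat1 (chr19:5824708-5845478, minus strand) had summits only in the part shared by both isoforms. All 11 lay in exons of the short transcript (3004 nt, chr19:5842307-5845476) as well as in the long one, and none lay in the stretch that only the long isoform has. The highest pileup was 58 and 65 fragments in shCTR A and B, at 1460 and 1517 nt, and 48 and 43 fragments in shMettl14 A and B, at 1470 and 1463 nt. The strongest summit ranked 9243, 5628, 9456 and 5675 by fold enrichment in these lists, or percentiles of 17.2, 35.0, 30.9 and 38.7. Neat1 therefore combined a high pileup (percentiles of 95.2 to 97.0) with a fold enrichment below the median summit of every list. A place at 1785 to 1798 nt held a summit in the 2 shMettl14 lists, of 39 and 19 fragments, and in neither shCTR list, although the peak intervals of all 4 lists covered it.

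Meg3 (chr12:109541001-109571726, plus strand) had its summits in the last of the 5 exons of Meg3-209. The pileup reached 45 and 37 fragments in the shCTR lists (A, then B) and 39 and 28 in the shMettl14 lists. Its strongest summit ranked 3128, 3465, 2739 and 2493 by fold enrichment, with values of 10.5, 9.08, 11.0 and 10.9, which put it above the median summit of each list. All 6 Meg3 summits also lay in an exon of Gm26906, a noncoding RNA annotated on the opposite strand, and the peak lists give no strand, so the 2 genes cannot be told apart. A further 7 summits lay 1632 to 4753 bp past the annotated 3′ end of Meg3 in shCTR A, shCTR B and shMettl14 A, in no annotated exon, with 5 to 13 fragments.

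Rian (chr12:109603940-109661716, plus strand), the host of a series of small nucleolar RNAs, had 1 exonic summit per list. Its fold enrichment was 13.3 and 3.84 in shCTR A and B and 10.6 and 6.78 in shMettl14 A and B, and the ranks were 1651, 8504, 3045 and 6075. This was the widest spread of the 5 genes, from the 85.2 percentile to the 1.75 percentile within the shCTR group. The shCTR B list stood apart in its background, which was 5.25 fragments against 1.78, 1.65 and 1.65 in the other lists, while its pileup of 23 fragments lay within their range of 17 to 36. The background is the divisor of the fold enrichment, so the ratio falls as it rises. Both shMettl14 lists had a second summit in the same interval, in the intron before the exon, with 21 and 11 fragments. The peak intervals of the shCTR lists covered that place too, and how common such extra summits were was not counted. Of the 20 annotated Rian transcripts, 2 (Rian-202 and Rian-213) contain the exonic summits.

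Kcnq1ot1 (chr7:143203458-143296549, minus strand) is a single-exon transcript within the Kcnq1 locus, and its summits rested on few fragments, from 4 to 10. Its highest pileup was 8 and 9 fragments in the shCTR lists and 10 and 8 in the shMettl14 lists. Fold enrichment was nevertheless near the middle of the lists, with the strongest summit at percentiles of 49.0, 54.1, 70.9 and 49.0 and ranks of 5666, 3965, 3983 and 4724. Summits at 37822 to 38028 nt were present in every list, and summits at 37408 to 37434 nt in all but shCTR A. The shCTR A list had a summit at 37592 nt, with 7 fragments, and its peak interval covered 37408 to 37434 nt as well. The pair at 72570 and 72574 nt, each of 4 fragments, was found in shCTR B and shMettl14 A. In shMettl14 A the summits at 37434 and 38028 nt were tied at 9.55. Of the 2371 DRACH motifs in this transcript, 24 lay within 50 nt of a summit.

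**Figure D3:**
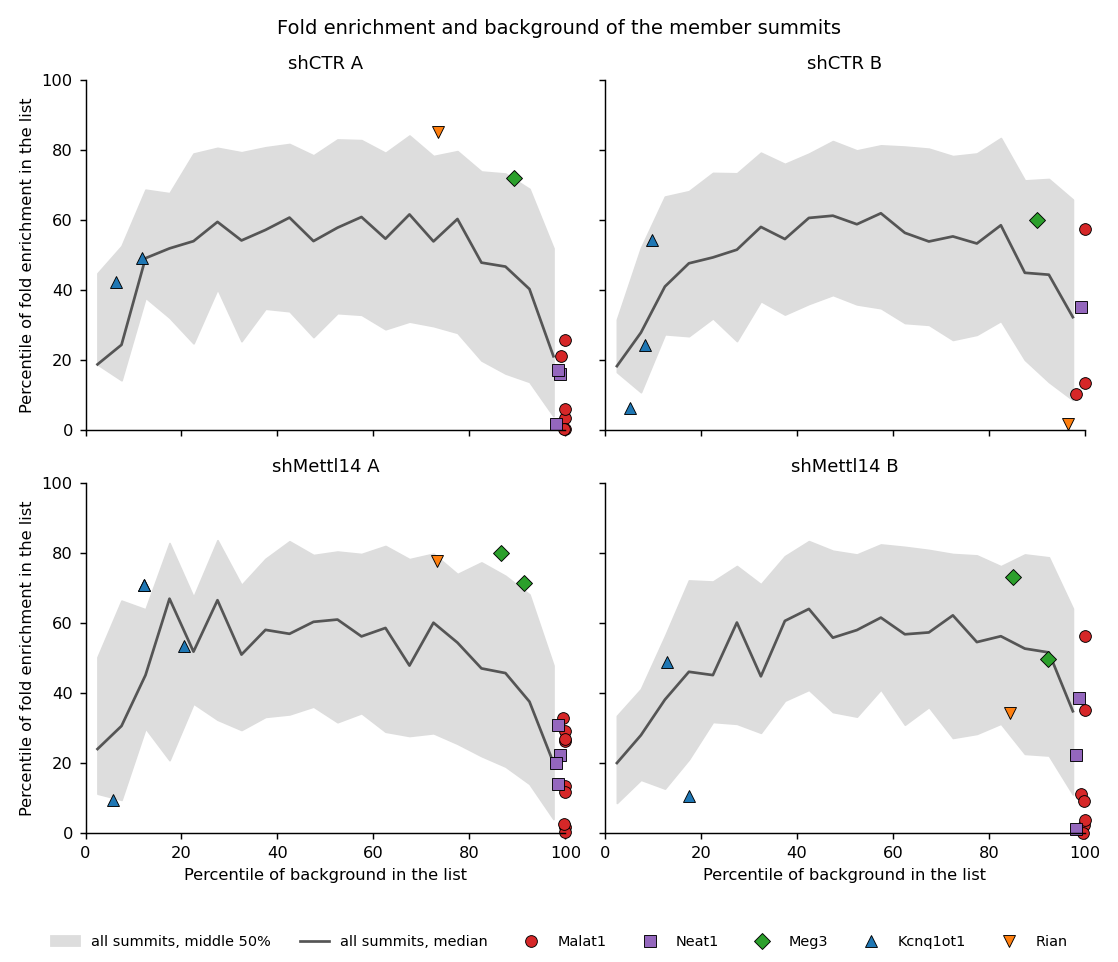
Percentile of fold enrichment (y axis) against percentile of background (x axis) for each member summit, with 1 panel per list. The grey band and line give the middle 50% and the median of all summits in bins of 5 points of background. Malat1 and Neat1 summits sat at the right edge, where the median of all summits also dropped, and Kcnq1ot1 toward the left. The median dropped at the left edge too. In the lowest bin it was 18.7 and 18.2 in shCTR A and B and 24.0 and 20.0 in shMettl14 A and B. In the highest bin it was 21.0, 32.2, 20.1 and 34.8 in that order.

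Summits with a high background had widely spread and mostly low fold enrichment. This was not particular to a high background, since the median was also low in the lowest bin of background. Summits in the top 1% of background had a median fold enrichment percentile of 6.42 and 10.1 in the shCTR lists and of 7.93 and 17.8 in the shMettl14 lists. Their quartiles were 1.05 and 31.1 in shCTR A, 2.15 and 34.9 in shCTR B, 0.91 and 25.4 in shMettl14 A, and 2.31 and 54.7 in shMettl14 B, and the highest reached 73.4, 84.7, 77.6 and 93.4. The strongest Malat1 summit, a maximum over several summits, was above the upper quartile in all lists but shCTR A. Their median pileup percentile was between 95.0 and 96.6. Since the background is the divisor of fold enrichment, the 2 are linked by construction. By the p-value that MACS2 gives each summit, which takes the pileup itself into account, Malat1 stood high, with its strongest summit at the 98.6, 99.6, 97.3 and 99.3 percentile of −log10 p.

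A DRACH motif on the transcript strand was within 50 nt of 55 of the 57 summits, or 96.5%, against 95.0% to 96.3% of all exonic summits of a list. The 2 summits without one were in Malat1, at 991 nt in shCTR A and at 1017 nt in shMettl14 B. The narrower motif GGACT was within 50 nt of 10 of 57, or 17.5%, against 20.0% to 24.0% of all exonic summits. Neither share set the group apart in this description. GGACT was near 4 Neat1, 3 Kcnq1ot1, 2 Rian, 1 Malat1 and 0 Meg3 summits, and the Kcnq1ot1 stretch at 37425 nt printed above holds it. DRACH motifs were spread along each transcript, at 15.7 to 25.5 per kb, and most were more than 50 nt from a summit of any list. The share within 50 nt was 29.7% in Rian, 18.0% in Malat1, 3.39% in Meg3, 3.23% in Neat1 and 1.01% in Kcnq1ot1.

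The comparison of shMettl14 with shCTR asks whether knockdown of the writer subunit changed these peaks. Mettl14 itself had no exonic summit in any list, so the lists do not check the knockdown. Member summits numbered 13 and 9 in shCTR A and B and 20 and 15 in shMettl14 A and B, with means of 11 ± 2.83 and 17.5 ± 3.54 (SD, n = 2 lists). The groups did not overlap, and the exact permutation test gave p = 0.333 (two-sided), the smallest that 2 lists against 2 allow. Without shMettl14 A the difference of 6.5 summits was 4. Intervals did not follow, since the members had 8, 8, 8 and 7 distinct intervals. The shMettl14 lists thus held more summits per interval, 2.5 and 2.14 per member interval against 1.63 and 1.13. All intervals of the lists had 1.31 and 1.23 summits in shCTR and 1.51 and 1.32 in shMettl14.

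Malat1, with 6, 3, 9 and 7 summits, and Meg3, with 1, 1, 2 and 2, had more summits in both shMettl14 lists than in both shCTR lists. The same was true of 8.35% of the 6075 genes with an exonic summit in any list, and fewer summits were found in 1.98%. Unlike Malat1 and Meg3, some of those genes had no summit in some lists. The share among the 3690 genes with a summit in all 4 lists was not counted, and genes with few summits have less room to differ. Neat1, with 3, 1, 4 and 3, and Kcnq1ot1, with 2, 3, 4 and 2, overlapped between groups, and Rian had 1 in each list. Member summits were 0.134% and 0.116% of the exonic summits in shCTR and 0.166% and 0.181% in shMettl14 (exact permutation p = 0.333). All 6 Meg3 summits and 5 of the 25 Malat1 summits also lay in exons of another gene. Without these, members had 11 and 8 summits in shCTR and 16 and 11 in shMettl14, which overlapped between groups (exact permutation p = 0.667), as did Malat1 with 5, 3, 7 and 5. The member share was then 0.113% and 0.104% in shCTR against 0.133% in both shMettl14 lists.

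In fragments, the highest Malat1 pileup was lower in both shMettl14 lists (166 ± 9.90 against 114 ± 9.19, SD, n = 2 lists per group), and so was that of Neat1 (61.5 ± 4.95 against 45.5 ± 3.54). This was also the case for 39.1% of the 3690 genes with an exonic summit in all 4 lists, and the pileups are not scaled for depth. As percentiles of pileup the groups overlapped for both genes. For Malat1 this percentile was near its ceiling in every list, from 99.978 to 99.984, so it can show little of a change. Of the 5 genes, only Meg3 had a fold enrichment percentile that was higher in both shMettl14 lists, at 80.0 and 73.1 against 72.0 and 60.0, which held for 17.8% of all such genes. The exact permutation p was 0.333, the difference of 10.5 points was 4.54 without shCTR B and 16.5 without shCTR A, and by pileup percentile Meg3 overlapped between groups. The 80.0 and 73.1 belong to summits at 14401 and 14394 nt, and each shMettl14 list had 2 Meg3 summits against 1 in each shCTR list. The other Meg3 summit of each shMettl14 list, at 14285 and 14298 nt, was at 71.4 and 49.7, against 72.0 and 60.0 in shCTR. Kcnq1ot1 had a higher pileup percentile in both shMettl14 lists, at 29.4 and 22.3 against 16.2 and 20.9, as did 16% of genes, and its background percentile was higher there too, as it was for 18.5% of genes. The highest background percentile of Meg3 was also higher in both shMettl14 lists, at 91.3 and 92.4 against 89.3 and 90.1.

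Intervals of all lists that shared at least 1 bp were merged into 11361 regions. The member genes held 8 of these, of which 5 had a peak in all 4 lists, as did 43.4% of all regions. None of the 8 was specific to a group, meaning present in both of its lists and absent from both others, which was the case for 3.49% of all regions. The exceptions to full presence were the Malat1 regions chr19:5798855-5799210, absent from shCTR B, and chr19:5800504-5800662, found in the A lists only, and the Kcnq1ot1 region chr7:143223781-143224065, found in shCTR B and shMettl14 A. Each of these had low fold enrichment, at most 4.59.

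The 4929 regions with a peak in all lists were compared by rank. The fold enrichment of a region, taken at its highest summit, was ranked within each list and turned into a normal score. A score of 0 is the middle region, and the scores were tested with limma and Benjamini-Hochberg adjustment. No region passed at an adjusted p of 0.05, which is 0% of those tested, and 243 regions, or 4.93%, had an unadjusted p under 0.05. None of the 5 member regions was among these. The shMettl14 minus shCTR difference in normal scores was 0.09 ± 0.53 (SE) for Malat1 (chr19:5800923-5802600), 0.27 ± 0.51 for Neat1 (chr19:5843268-5844188), 0.33 ± 0.49 for Meg3 (chr12:109571333-109571679), 0.23 ± 0.50 for Kcnq1ot1 (chr7:143258457-143259236) and 0.70 ± 0.70 for Rian (chr12:109660633-109661042). Each had an adjusted p of 0.999 in limma, and every difference was about as large as its error or smaller. The lack of a call does not show that the peaks were unaffected. Ranks also leave out a change that all peaks share.

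**Figure D4:**
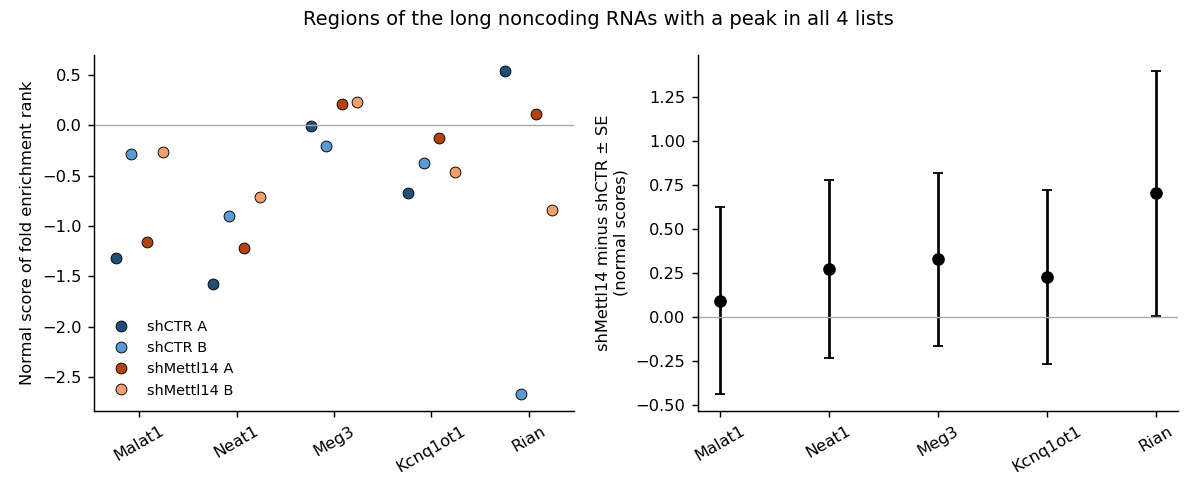
Left, normal score of the fold enrichment rank (y axis) of the 5 member regions in each list. Right, the difference between groups with its standard error from limma. Malat1, Neat1 and Rian differed more between the A and B lists than between the hairpins, and the differences ran from 0.09 to 0.70 with errors of 0.49 to 0.70.

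For Malat1 the scores were −1.32 and −0.28 in the A and B lists of shCTR against −1.16 and −0.26 in those of shMettl14. The distance between the replicates was greater than that between the groups. Rian had 0.54, −2.67, 0.12 and −0.84 in the same order, so its difference rests on the shCTR B list. Without that list it was −0.88, and without shCTR A it was 2.30. The interval files that the authors deposited for each group, described as the overlap of its replicates, held 3 Malat1, 1 Neat1, 1 Meg3 and 2 Kcnq1ot1 intervals in each group. They held a Rian interval for shMettl14 and not for shCTR, although both shCTR lists had a Rian peak at the same place. How many of the 6706 shCTR and 6440 shMettl14 intervals occurred in 1 group only was not counted here. Some of these intervals, such as that of Rian (chr12:109660620-109661067), reach beyond the peaks of the lists, so they are not the plain overlap of the deposited lists.

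The genes whose strongest summit followed the same percentiles across the 4 lists were found among 3689 other genes by the smallest root mean square difference. For Malat1 these were Thbs1, an adhesive matrix glycoprotein, at 4.14 points and Hipk3, a protein kinase, at 7.26 points. For Neat1 they were Exoc6b, an exocyst subunit, at 1.76 and Tusc2 at 3.30. Meg3 shared every summit with Gm26906 and was next closest to Slc30a4, a zinc transporter, at 1.07. Kcnq1ot1 was closest to Lifr, a cytokine receptor, at 3.46 and Urb1 at 3.75, and Rian to Fam19a5 at 5.79 and Rbbp8 at 6.36. The measure covers 4 values per gene and is a description.

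Other long noncoding RNAs were read from a list of 48, of which 41 names were in the annotation. An exonic summit was present for 8 of them in any list and for 5 in all 4 lists. Norad, annotated as 2900097C17Rik, had its strongest summit at fold enrichment percentiles of 94.9, 98.7, 99.4 and 91.2, and a pileup of 95, 103, 65 and 54 fragments. Tug1 was at 94.8, 89.4, 96.8 and 95.2, and Peg13 at 95.5, 71.2, 84.9 and 89.1. Both were thus higher in fold enrichment than Malat1 and Neat1 in every list, with fewer fragments than Malat1. The others were 1700020I14Rik, with a mean of 60.8, and Mir22hg, with 36.0. None of 7 imprinted neighbours of the members had an exonic summit. Of 6 paraspeckle protein genes only Rbm14 had one, at 69.8, 62.8, 83.0 and 65.0.

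The cell type was read from marker genes, although a peak is not a measure of level. Exonic summits were present in 3 of 10 smooth muscle markers (Lmod1, Cald1 and Myh11), 3 of 6 endothelial markers (Cdh5, Pecam1 and Kdr), 1 of 5 macrophage markers (Csf1r, in shMettl14 B) and 1 of 4 fibroblast markers (Pdgfra). Cdh5, an endothelial cadherin, had background percentiles of 98.9, 99.2, 99.2 and 99.4, close to those of the smooth muscle genes Lmod1 (98.7 to 99.3) and Cald1 (99.9 in each list). Other markers of the same lists were lower. Pecam1 was at 93.3, 93.0, 96.0 and 93.1, Kdr at 1.05, 3.59 and 11.1, and Myh11 at 94.7, 52.8 and 90.2, where Kdr and Myh11 had no summit in shMettl14 B. The part of other cells in the member peaks was not tested.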

How the data were processed

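The series measured m6A by antibody pulldown and sequencing in primary mouse VSMCs. Per the labels and the study's methods, the authors aligned reads with STAR to mm10, dropped multiply mapping reads by SAMtools and used MACS2 for peak calling, with the matching input as control for every IP; MACS2's version and options are not given in the sources used here. The deposited lists give fold enrichment as a ratio, −log10 p-values and −log10 q-values per summit, and the authors' smallest −log10 q-value was 2.01 in each list. The deposited interval files, made with BEDTools from both replicates of a group, carry no values. All 6 files were used.

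Summits were placed in GENCODE M21 exons. The whole-number pileup and the background that give both deposited values were found by a scan of the Poisson tail, and they matched at 100% of summits within 0.001 of −log10 p. Totals of reads were not used here. Groups were compared with exact permutation tests over lists and with limma 3.58.1 (R 4.3.3) on normal scores, using Python 3.11.15 and scipy 1.17.1. The region test was tested on simulated data, where 25.5%, 81.5% and 81% of 200 regions shifted by 1, 2 and 3 on the log2 scale were called among 4929. Every simulated region had the same normal spread, and the shifts went up or down at random. These shares may therefore not hold for real regions, whose spreads differ, or for a shift that most regions share. Named genes were all 6 members, at most 5 genes with a summit in every peak list from each of the lists of other long noncoding RNAs, imprinted neighbours and paraspeckle proteins, and the 2 genes closest to each member in percentile; for sequences, the DRACH site nearest to the strongest summit. Cell type markers with an exonic summit in any list are named as well. The motifs near a summit in all 4 lists were added after the data were seen. The members and lists were chosen with earlier results of these data known. Alternatives covered the peak threshold, ranking, merging, motif and each list left out.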

Additional observations from a re-analysis of the deposited data

How the results depend on the processing

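Alternatives were set by hand for each result and changed one choice at a time, except that Fisher's exact test changed both the measure and the test. The excess of member summits in shMettl14 (a difference of 6.5 per list) became −0.5 when distinct intervals were counted, was 4 without summits in exons of another gene, and ran from 4 (without shMettl14 A) to 9 (without shMettl14 B) with one list left out. The difference in share of exonic summits (0.0481 points) was 0.0678 with equal numbers of top peaks and 0.0242 without summits in exons of another gene. The Meg3 difference in strongest percentile, 10.5 points, fell to 2.50 when −log10 p was ranked and to 0.51 for pileup, and ran from 4.54 (without shCTR B) to 16.5 (without shCTR A). It compares the higher of 2 summits in each shMettl14 list with 1 summit in each shCTR list. The lower summit was at 71.4 and 49.7 in shMettl14, against 72.0 and 60.0 in shCTR. For the other genes the difference in strongest percentile changed sign with one list left out, with Rian running from −29.2 to 54.3. The DRACH share, as a mean over lists, was 96.4%, and that of GGACT 17.1%. Group-specific member regions numbered 0, and 0 to 1 with one list left out, since without shCTR A the Malat1 region absent from shCTR B was found in shMettl14 lists only. The rank test called 0 regions, and 0 to 3 with one list left out, with the 3 found without shMettl14 A, none of them a member. Malat1 and Neat1 differences changed sign under ranks of −log10 p (−0.29 and −0.0700). They were −0.25 and −0.14 as log2 ratios of summed pileups with Fisher's exact test, and −0.13 for Rian, where Malat1 had an unadjusted p of 0.0412 and an adjusted p of 1. That p covers counting error only, since it leaves out the spread between lists and takes amplified fragments as independent. Ranks of pileup gave −0.11 for Neat1 and −0.15 for Rian. With each list left out, Malat1 ran from −0.42 to 0.63, Neat1 from −0.0707 to 0.63 and Rian from −0.88 to 2.30. Meg3 and Kcnq1ot1 kept their sign in all 10 alternatives. Over all of these the adjusted p of a member region was at least 0.346 (Rian without shCTR A). With a list left out, its group has 1 list, which is assumed to vary like the other group. Under the remaining alternatives values were within the spread between lists or on the same side of the threshold.

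Letters A and B are shared by the groups but the labels do not say that they pair samples, and the deviations of same-letter lists correlated at 0.0795 in this design of 2 pairs. With the letter as a replicate block 0 regions were called, and 292 had an unadjusted p under 0.05.

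With 2 lists per group an exact test cannot go below p = 0.333. Kcnq1ot1 values rest on at most 10 fragments, pileups cannot be scaled for depth here, and a gene without a peak has no value.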
